A study of Mus musculus with 6 samples.

Results

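The nuclear-encoded genes of the mitochondrial respiratory chain and ATP synthase were described in Msc80, a mouse Schwann cell line, with and without Sox10, the transcription factor that keeps neural crest and glial cells in their lineage. Members were chosen by symbol: every protein-coding gene whose symbol starts with Ndufa, Ndufb, Ndufc, Ndufs, Ndufv, Uqcr, Cox6, Cox7, Cox8 or Atp5, with Sdha, Sdhb, Sdhc, Sdhd, Cyc1, Cox4i1, Cox5a and Cox5b. This gave 94 of the 54109 genes listed: 36 of complex I, 8 complex I assembly factors (symbols starting Ndufaf), 4 of complex II, 9 of complex III, 19 of complex IV and 18 of ATP synthase. Ndufa4 and Ndufa4l2 were counted with complex IV, where the Ndufa4 protein sits. The 3 Sox10ko cultures are labelled as a clone of the line with Sox10 inactivated by CRISPR/Cas9, and the 3 control cultures as Sox10 wt. The control source is given as the line itself, yet the treatment label names genome editing for all 6 samples, so the groups rest on titles, sources and genotype labels, and whether controls also went through editing is unclear. All 6 were grown in the same serum-containing medium, and mRNA libraries were sequenced to between 32328618 and 41834431 counted reads per library. The labels do not say whether the Sox10ko cultures came from 1 clone or several, so clone and loss of Sox10 cannot be told apart.

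The respiratory chain passes electrons to oxygen and pumps protons out of the mitochondrial matrix, and ATP synthase uses the returning protons to make ATP. Complex I takes electrons from NADH and complex II from succinate, complex III hands them to cytochrome c, and complex IV gives them to oxygen. A small number of subunits are encoded in mitochondrial DNA. The rest are nuclear genes that are imported as proteins, and some of these have isoforms typical of muscle, testis or low oxygen.

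Sox10 RNA stood at 82.3, 67.5 and 116 CPM in the Sox10ko libraries, against 606, 627 and 617 CPM in the controls (log2 fold change -2.80 ± 0.20, edgeR adjusted p = 0.000186). CPM is the usual per-million read level, with library sizes adjusted by TMM, log2 fold changes are Sox10ko over control ± SE, and a gene was called at an edgeR adjusted p under 0.05. The marker lists also separated the groups. Of 10 Schwann cell markers, 9 were called lower, with a summed level of 112 to 163 CPM in Sox10ko and 4696 to 5280 CPM in control. Of 5 tested smooth muscle markers, 4 were called higher (118 to 670 CPM in Sox10ko, 0.786 to 1.03 CPM in control), and of 4 tested fibroblast markers, 2 (657 to 1910 CPM in Sox10ko, 285 to 335 CPM in control). Of all tested genes, 17.3% were called higher and 14.7% lower. Smooth muscle markers were very low in control, so some passed the filter on low counts only through Sox10ko. The filter set the direction of such calls. Summed leukocyte markers reached 5.73 to 10.8 CPM in Sox10ko and 1.81 to 3.13 CPM in control, with Itgam and Cd3e at 0 reads. Endothelial markers summed to 19.7 to 56.0 CPM in Sox10ko and 3.39 to 4.59 CPM in control, but of 3 tested only Vwf was called higher, while Cdh5 was called lower and Pecam1 was not called. Epithelial markers summed to 2.93 to 5.13 CPM in Sox10ko and 0.146 to 0.271 CPM in control. Neuron markers summed to 54.5 to 72.4 CPM in Sox10ko and 89.2 to 100.3 CPM in control, with Rbfox3 at 0 reads. Of 4 tested neuron markers, Tubb3 alone was called, as lower, and the other 3 had positive fitted changes. The part of these shifts in the results that follow was not tested. In such bulk libraries, fewer cells of a type and less RNA per cell cannot be told apart.

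Respiratory chain genes changed little in size, and nearly all that changed were higher in Sox10ko. Of 89 members with enough reads to test, 24 (27.0%) were called higher and 2 (2.25%) lower, where 17.3% of all 15427 tested genes were called higher and 14.7% lower (32.0% in either direction). The 24 belonged to complex I (12), its assembly factors (3), complex III (2), complex IV (6) and ATP synthase (1). They include Cox6a2, of complex IV, which passed the filter on low counts only through Sox10ko. The 2 lower members were Sdhb, of complex II, and Ndufaf4, an assembly factor of complex I. The median log2 fold change of the 89 was 0.19, against 0.02 for all tested genes, and 71 of the 89 were positive. In 82 members (92.1%) the fitted change was within 1.5-fold, as in 65.6% of all tested genes. At a mean of 5 CPM or more these shares were 93.0% and 75.4%.

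All 3 Sox10ko libraries stood above all 3 controls in 37 members (41.6%, where 25.5% of all tested genes did) and below them in 2 (where 23.8% did). Relative to each member's control mean, the median over members was 0.13, 0.23 and 0.24 on the log2 scale in Sox10ko replicates 1, 2 and 3, and 0.03, -0.11 and 0.08 in control replicates 1, 2 and 3. Control replicate 2 was the lowest of the 6 libraries in 50 of the 89 members, and Sox10ko replicate 3 the highest in 34. Without control replicate 2 the median of members was 0.11.

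The number of calls fell when 1 library was left out. Such fits have fewer libraries, so the part of a particular library and the loss of power cannot be told apart. Left out in turn, Sox10ko replicates 1, 2 and 3 left 21, 14 and 15 members called higher, or 23.6%, 15.7% and 16.9%, where 15.8%, 15.3% and 15.7% of all tested genes were. Control replicates 1, 2 and 3 left out in turn gave 9, 8 and 5 members, or 10.1%, 8.99% and 5.62%, where 11.5%, 12.6% and 9.46% of all tested genes were called higher. Without any 1 control library, the members' share was thus below that of all genes. Without control replicate 3, the fit with the fewest higher calls, the members' median was 0.23. The lower calls were 2 in each of these fits except those without Sox10ko replicate 1, control replicate 1 and control replicate 3, where Sdhb alone remained (12.9%, 9.93% and 8.36% of all tested genes were lower there). With no filter on low counts, 9 members were called higher, where 9.44% of all genes with a read were. Cox4i1, Ndufa8, Ndufaf3 and Uqcr11 stayed higher and Sdhb lower in all 16 alternatives.

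**Figure D1:**
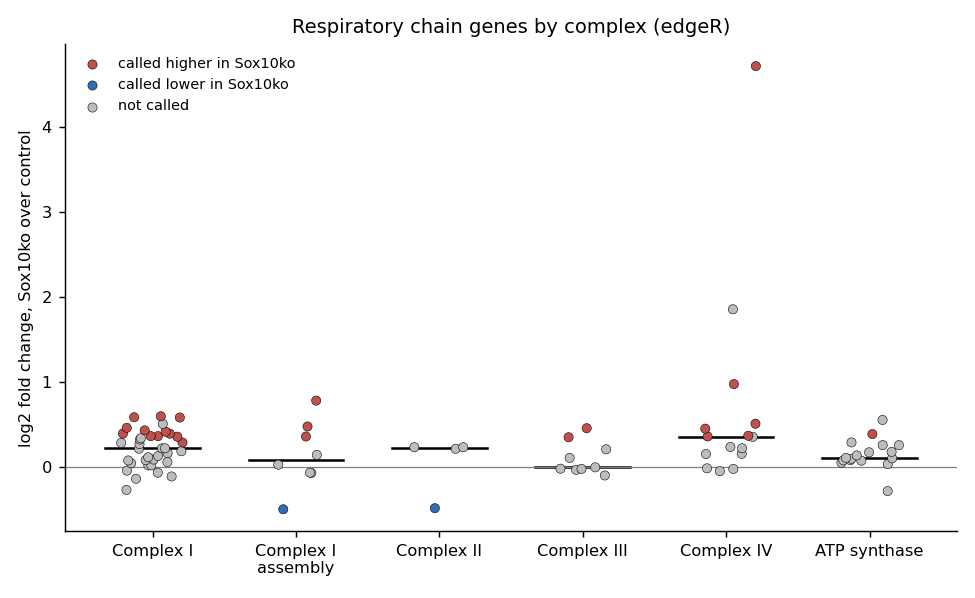
Each point is 1 of the 89 tested respiratory chain genes, by complex, with its log2 fold change of Sox10ko over control on the y axis. Red points were called higher, blue points lower and grey points were not called, and the bar is the median of the complex. Most points lie between 0 and 0.6, the point at 4.72 is Cox6a2, and the blue points are Ndufaf4 and Sdhb.

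**Figure D2:**
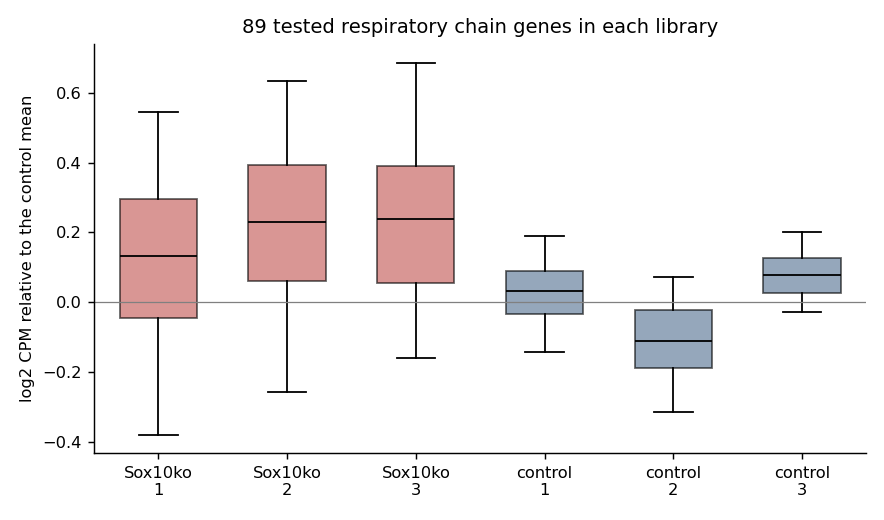
Boxes show, for each library, the 89 tested members' log2 CPM relative to their own control mean (line, median; box, quartiles; whiskers, the percentiles 5 and 95). The Sox10ko medians of 0.13, 0.23 and 0.24 lie above those of control, and control replicate 2 has the lowest, at -0.11.

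Promoter sequences, from the RefSeq table of GRCm38.p6, are shown for both lower members (Sdhb and Ndufaf4), for Ndufa8, Ndufaf3 and Uqcr11, which stayed higher in every alternative, and for Sdhd, whose neighbour on the other strand was called. Each window runs from 250 bases before to 50 after the gene's start, 5′ to 3′ on the gene's own strand. Capitals mark matches, on either strand, to short motifs that are known for factors of respiratory or SOX-regulated genes: GCGCA, any base and GCGC (NRF1), CCGGAAG (ETS factors), AAGATGGC (YY1), AAGGTCA (ERR receptors), and ACAAAG and ACAATG (SOX factors). The windows are chr4:140961021-140961320 on the plus strand for Sdhb, chr4:24897833-24898132 on the plus strand for Ndufaf4, chr2:36049289-36049588 on the minus strand for Ndufa8, chr9:108567387-108567686 on the minus strand for Ndufaf3, chr10:80406772-80407071 on the minus strand for Uqcr11 and chr9:50603800-50604099 on the minus strand for Sdhd.
Sdhb: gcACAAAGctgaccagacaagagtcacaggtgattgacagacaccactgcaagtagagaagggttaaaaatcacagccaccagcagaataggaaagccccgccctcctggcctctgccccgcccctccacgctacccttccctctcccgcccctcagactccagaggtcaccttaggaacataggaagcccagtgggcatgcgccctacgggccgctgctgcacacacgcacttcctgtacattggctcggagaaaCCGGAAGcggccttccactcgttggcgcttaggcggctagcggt
Ndufaf4: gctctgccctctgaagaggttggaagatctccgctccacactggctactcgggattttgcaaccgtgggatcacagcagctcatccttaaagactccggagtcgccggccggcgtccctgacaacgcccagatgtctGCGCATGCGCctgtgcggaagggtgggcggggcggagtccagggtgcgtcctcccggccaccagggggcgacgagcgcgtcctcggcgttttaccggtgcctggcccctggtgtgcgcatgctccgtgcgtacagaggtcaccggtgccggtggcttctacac
Ndufa8: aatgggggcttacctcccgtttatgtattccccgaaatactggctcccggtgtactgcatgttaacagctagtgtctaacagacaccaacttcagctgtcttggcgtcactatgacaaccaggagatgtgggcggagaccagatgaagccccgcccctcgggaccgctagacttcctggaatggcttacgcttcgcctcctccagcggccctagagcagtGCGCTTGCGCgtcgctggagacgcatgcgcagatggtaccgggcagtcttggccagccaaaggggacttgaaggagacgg
Ndufaf3: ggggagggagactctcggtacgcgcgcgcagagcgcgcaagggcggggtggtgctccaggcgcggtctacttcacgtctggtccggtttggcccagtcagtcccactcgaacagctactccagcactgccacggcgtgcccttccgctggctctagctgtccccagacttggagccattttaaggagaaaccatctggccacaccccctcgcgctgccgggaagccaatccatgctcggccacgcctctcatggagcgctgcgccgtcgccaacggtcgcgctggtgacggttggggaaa
Uqcr11: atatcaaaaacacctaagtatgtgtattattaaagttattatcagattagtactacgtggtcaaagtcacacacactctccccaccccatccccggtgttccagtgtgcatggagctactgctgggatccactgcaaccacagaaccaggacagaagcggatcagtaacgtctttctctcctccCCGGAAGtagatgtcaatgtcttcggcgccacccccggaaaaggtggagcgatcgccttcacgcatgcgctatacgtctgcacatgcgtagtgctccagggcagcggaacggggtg
Sdhd: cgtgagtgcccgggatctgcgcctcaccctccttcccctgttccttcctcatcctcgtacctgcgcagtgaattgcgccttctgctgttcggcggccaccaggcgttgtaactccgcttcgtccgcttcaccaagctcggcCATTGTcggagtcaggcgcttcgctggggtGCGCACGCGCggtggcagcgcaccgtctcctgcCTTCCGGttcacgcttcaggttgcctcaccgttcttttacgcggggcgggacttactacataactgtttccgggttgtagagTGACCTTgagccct

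The Sdhb window held an ETS match and, at its far end, ACAAAG. Ndufaf4 and Ndufa8 each held an NRF1 match, Uqcr11 an ETS match, Ndufaf3 none of the motifs, and Sdhd matches to NRF1, ETS, ERR and ACAATG. RefSeq gave 79 promoters for 74 of the 89 tested members. The NRF1 motif was in 25.3% of them, against 4.6% of all 32851 promoters in the table. For ETS the shares were 22.8% and 8.86%, for YY1 13.9% and 2.75%, and for ERR 10.1% and 4.72%. The SOX motifs were about as frequent as elsewhere, at 17.7% and 18.7% for ACAAAG and 13.9% and 12.6% for ACAATG. Of the 21 members called higher that had a promoter, 3 held NRF1, 5 ETS, 3 YY1, 1 ERR, 3 ACAAAG and 1 ACAATG. A match describes the letters and is not a site. The ETS and YY1 motifs can overlap, since one ends and the other begins with AAG.

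Complex I, the NADH dehydrogenase, is the largest of the complexes. Of its 36 members, all tested, 12 were higher and 0 lower in Sox10ko (median log2 fold change 0.22), and none of the 12 rose by more than 1.52-fold. Ndufa8, an accessory subunit at chr2:36036326-36049406, had 52.8, 54.3 and 55.9 CPM in Sox10ko replicates 1, 2 and 3, against 37.6, 32.9 and 38.0 CPM in control replicates 1, 2 and 3. The lowest Sox10ko library was thus well above the highest control, by far more than the spread within either group (log2 fold change 0.59 ± 0.10, edgeR adjusted p = 0.00426). Ndufs3, a core subunit of the matrix arm, had 52.4, 49.5 and 51.7 CPM in the 3 Sox10ko libraries, against 39.9, 38.8 and 38.1 CPM in the controls, with no overlap (log2 fold change 0.40 ± 0.09, edgeR adjusted p = 0.0120). Ndufa7, another accessory subunit, had 112, 114 and 149.8 CPM in the 3 Sox10ko libraries, against 86.2, 79.1 and 82.7 CPM in the controls. Sox10ko replicate 3 was the highest, and the other Sox10ko libraries were also above all controls (log2 fold change 0.60 ± 0.13, edgeR adjusted p = 0.0125). Ndufa3, a small accessory subunit, was 79.6, 90.2 and 79.3 CPM in Sox10ko and 61.5, 60.6 and 67.1 CPM in control, again with no overlap (log2 fold change 0.40 ± 0.10, edgeR adjusted p = 0.0189).

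The calls of Ndufs3, Ndufa7 and Ndufa3 were not kept in every fit. That of Ndufs3 was lost on leaving out control replicate 3 (edgeR adjusted p = 0.0751), that of Ndufa7 on leaving out control replicate 2 or 3 (edgeR adjusted p = 0.0506 and 0.0599), and that of Ndufa3 on leaving out Sox10ko replicate 2 or control replicate 1, 2 or 3 (edgeR adjusted p = 0.0535 to 0.0778). The other 8 higher members were Ndufa1, Ndufa11, Ndufa13, Ndufb4, Ndufb7, Ndufb10, Ndufc1 and Ndufs7, between 1.22-fold and 1.5-fold. Each of these calls was kept in 0 to 3 of the 6 fits that leave out 1 library. Complex I as a whole had 11, 5 and 8 higher calls without Sox10ko replicates 1, 2 and 3, and 4, 2 and 1 without control replicates 1, 2 and 3. Its median log2 fold change lay between 0.16, without control replicate 2, and 0.27, without control replicate 3, in these fits. By role, 2 of 7 core subunits and 10 of 29 accessory subunits were higher.

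Other core subunits of complex I did not pass, of which Ndufs1 and Ndufv1 are described. Ndufs1, which carries iron-sulphur clusters, had 143, 208 and 189 CPM in the 3 Sox10ko libraries, against 171, 149 and 187 CPM in the controls, and the groups overlapped (log2 fold change 0.09 ± 0.16, edgeR adjusted p = 0.698). Ndufv1, which binds NADH, had 169, 159 and 219 CPM in the 3 Sox10ko libraries, against 183, 172 and 175 CPM in the controls, with Sox10ko replicate 3 the highest and Sox10ko replicate 2 the lowest of the 6 (log2 fold change 0.05 ± 0.13, edgeR adjusted p = 0.815). Per kilobase of exonic length, the highest levels of complex I were those of Ndufa1, at 185 CPM per kb in Sox10ko and 137 in control, and Ndufa2, at 123 in Sox10ko and 101 in control. Both are small accessory subunits. Ndufa1 was called (log2 fold change 0.43 ± 0.11, edgeR adjusted p = 0.0198) and lost its call on leaving out Sox10ko replicate 2 or control replicate 2 or 3 (edgeR adjusted p = 0.0532 to 0.0789). Ndufa2 was not (log2 fold change 0.29 ± 0.14, edgeR adjusted p = 0.157). The order per kilobase depends on the gene model: with the length of the principal transcript, Ndufa1 ranked 3 and Ndufa2 8 among the complex I members.

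**Figure D3:**
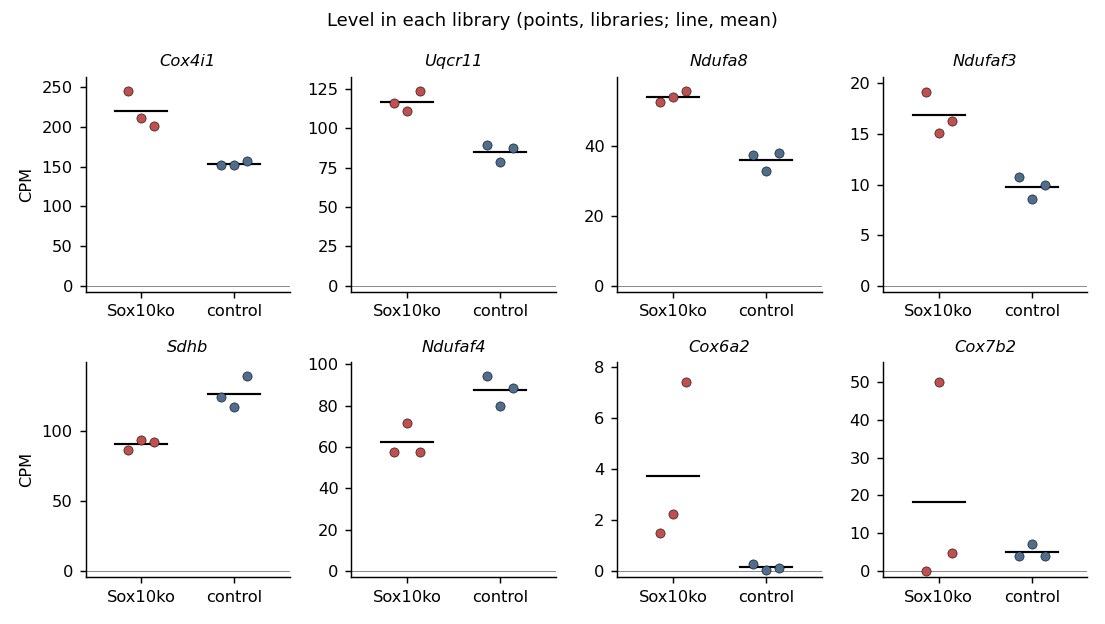
CPM in each library for 8 respiratory chain genes, with Sox10ko (red) left of control (blue) and a line at each group's mean. Cox4i1, Uqcr11, Ndufa8, Ndufaf3 and Cox6a2 have all Sox10ko points above control, Sdhb and Ndufaf4 have them below, and Cox7b2 has Sox10ko replicate 2 at 50 CPM and replicate 1 at 0.0300 CPM.

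Complex I assembly factors went in both directions, 3 higher and 1 lower of 8 (median log2 fold change 0.09, but 0.02 without control replicate 2 and 0.16 without control replicate 3). Ndufaf3 and Ndufaf4, proteins that work together early in assembly, moved oppositely. Ndufaf3 (chr9:108565537-108567434) had 19.1, 15.1 and 16.2 CPM in Sox10ko replicates 1, 2 and 3, against 10.7, 8.58 and 9.99 CPM in control replicates 1, 2 and 3, the highest fold among the called complex I genes and factors (log2 fold change 0.78 ± 0.16, edgeR adjusted p = 0.00879). Ndufaf4 (chr4:24898083-24905001) had 57.6, 71.4 and 57.5 CPM in Sox10ko replicates 1, 2 and 3, against 94.3, 79.9 and 88.6 CPM in control replicates 1, 2 and 3. All Sox10ko libraries were below all controls (log2 fold change -0.49 ± 0.12, edgeR adjusted p = 0.0199), but the call was lost on leaving out Sox10ko replicate 1 or control replicate 1 or 3 (edgeR adjusted p = 0.0512 to 0.0665). Ndufaf1, needed to build the membrane arm, had 23.1, 23.6 and 22.5 CPM in the 3 Sox10ko libraries, against 17.2, 17.9 and 18.8 CPM in the controls. These values were tight within each group (log2 fold change 0.36 ± 0.10, edgeR adjusted p = 0.0344), yet the call was lost on leaving out Sox10ko replicate 1, 2 or 3 or control replicate 1, 2 or 3 (edgeR adjusted p = 0.0529 to 0.136). Ndufaf7, a methyltransferase that modifies a core subunit, had 27.5, 29.0 and 37.5 CPM in the 3 Sox10ko libraries, against 22.4, 22.9 and 22 CPM in the controls, with no overlap (log2 fold change 0.48 ± 0.14, edgeR adjusted p = 0.0351). It was no longer called on leaving out Sox10ko replicate 3 or control replicate 1, 2 or 3 (edgeR adjusted p = 0.0640 to 0.129). Per kilobase of exonic length, Ndufaf4 (15.9 CPM per kb in Sox10ko, 22.4 in control) and Ndufaf1 (15.4 in Sox10ko, 11.9 in control) were the highest of these factors, both below the subunit genes Ndufa1 and Ndufa2. By principal transcript Ndufaf2 came first, Ndufaf4 ranked 2 and Ndufaf1 5. The higher calls were 2, 2 and 1 without Sox10ko replicates 1, 2 and 3 and 1 without each of control replicates 1, 2 and 3 in turn. Ndufaf5, Ndufaf2, Ndufaf8 and Ndufaf6 did not pass (edgeR adjusted p between 0.393 and 0.939).

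Complex II, succinate dehydrogenase, had a single change, in Sdhb. This gene (chr4:140961203-140979193) encodes the iron-sulphur subunit and had 86.7, 93.5 and 92.3 CPM in Sox10ko replicates 1, 2 and 3, against 124, 117 and 139 CPM in control replicates 1, 2 and 3. The highest Sox10ko library was below the lowest control, and the fall was 1.4-fold (log2 fold change -0.48 ± 0.10, edgeR adjusted p = 0.00981). Over the 16 alternatives its log2 fold change lay between -0.57 and -0.42 and its edgeR adjusted p reached at most 0.0417. The other 3 subunits had positive fitted changes that did not pass. Sdha, the flavoprotein, had 414, 412 and 411 CPM in the 3 Sox10ko libraries, against 341, 346 and 377 CPM in the controls (log2 fold change 0.22 ± 0.09, edgeR adjusted p = 0.0996), and Sdhd, a membrane anchor, 119, 125 and 132 CPM in Sox10ko and 104, 111 and 104 CPM in control (log2 fold change 0.24 ± 0.09, edgeR adjusted p = 0.0761). For both, Sox10ko was above control in every library. Sdhc, the other anchor, had 131, 169 and 141 CPM in Sox10ko and 131, 105 and 139 CPM in control, and the groups overlapped (log2 fold change 0.24 ± 0.14, edgeR adjusted p = 0.253). Per kilobase of exonic length, Sdhd (101.8 CPM per kb in Sox10ko, 86.4 in control) and Sdha (99.9 in Sox10ko, 85.9 in control) were the highest of the complex, and Sdha the highest by principal transcript.

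Complex III, which passes electrons to cytochrome c, changed in 2 small subunits and was otherwise level (2 of 9 higher, 0 lower, median log2 fold change 0.00). Uqcr11 (chr10:80402997-80406830) had 116, 111 and 124 CPM in Sox10ko replicates 1, 2 and 3, against 89.1, 78.5 and 87.3 CPM in control replicates 1, 2 and 3. The groups stood apart by more than the spread within them (log2 fold change 0.46 ± 0.09, edgeR adjusted p = 0.00999). Uqcr10 had 78.2, 80.8 and 80.8 CPM in the 3 Sox10ko libraries, against 65.3, 57.0 and 65.3 CPM in the controls, with no overlap (log2 fold change 0.35 ± 0.09, edgeR adjusted p = 0.0247), and was no longer called on leaving out Sox10ko replicate 2 or 3 or control replicate 1, 2 or 3 (edgeR adjusted p = 0.0522 to 0.0803). The complex thus had 1 higher call in each of these fits. These were also the 2 genes of complex III with the highest levels per kilobase of exonic length, Uqcr11 at 182 CPM per kb in Sox10ko and 133 in control and Uqcr10 at 137 in Sox10ko and 107 in control. By principal transcript Uqcr11 remained first and Uqcr10 ranked 4. The redox subunits did not pass: Cyc1, cytochrome c1, had 153, 129 and 165 CPM in the 3 Sox10ko libraries, against 147, 149.7 and 156 CPM in the controls (log2 fold change -0.02 ± 0.11, edgeR adjusted p = 0.929), and Uqcrfs1, the Rieske iron-sulphur protein, 92.4, 97.0 and 94.7 CPM in Sox10ko and 91.9, 95 and 103 CPM in control (log2 fold change -0.03 ± 0.09, edgeR adjusted p = 0.825). In both the groups overlapped.

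Complex IV, cytochrome c oxidase, had a median log2 fold change of 0.36, with 6 of 15 tested members higher and 0 lower. This was the highest median of the complexes, but without Sox10ko replicate 2 it was 0.21, below the 0.24 of complex I. Cox4i1 (chr8:120668222-120674207), the common isoform of subunit IV, had 245, 211 and 202 CPM in Sox10ko replicates 1, 2 and 3, against 152, 152 and 157 CPM in control replicates 1, 2 and 3. The controls lay close together and all Sox10ko libraries stood above them (log2 fold change 0.51 ± 0.10, edgeR adjusted p = 0.00902). Cox6b1, the common isoform of subunit VIb, had 222, 250.3 and 231 CPM in the 3 Sox10ko libraries, against 181, 181 and 182 CPM in the controls, with no overlap (log2 fold change 0.37 ± 0.09, edgeR adjusted p = 0.0174). Its call was lost on leaving out control replicate 1, 2 or 3 (edgeR adjusted p = 0.0596 to 0.0844). Cox7a2l, a factor that joins complexes III and IV into supercomplexes, had 122, 121 and 148 CPM in the 3 Sox10ko libraries, against 88.7, 107 and 89 CPM in the controls. Sox10ko was again above control throughout (log2 fold change 0.46 ± 0.13, edgeR adjusted p = 0.0306), and the call was lost on leaving out Sox10ko replicate 3 or control replicate 1 or 3 (edgeR adjusted p = 0.0785 to 0.134). Cox6c, a further subunit of the complex, was also called (log2 fold change 0.36 ± 0.12, edgeR adjusted p = 0.0496) and was kept in 1 of the 6 fits that leave out a library. Higher calls in complex IV were 5, 5 and 4 without Sox10ko replicates 1, 2 and 3 and 2, 3 and 2 without control replicates 1, 2 and 3.

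Complex IV has isoforms that are typical of certain tissues. The muscle isoforms Cox6a2 and Cox7a1 were called higher at low levels, each with limits given below, and Cox8b, also a muscle isoform, had 3 reads. Cox6a2 (chr7:128205435-128206387), the isoform of heart and skeletal muscle, had 1.5, 2.23 and 7.43 CPM in Sox10ko replicates 1, 2 and 3, against 0.271, 0.0512 and 0.0977 CPM in control replicates 1, 2 and 3, from 50, 95 and 298 reads in Sox10ko and 10, 2 and 4 in control. Sox10ko replicate 3 was the highest, and every Sox10ko library was above every control (log2 fold change 4.72 ± 0.84, edgeR adjusted p = 0.00554). With 16 control reads it passed the filter on low counts only through the Sox10ko libraries, so its direction was set by the filter. The log2 fold change was 3.72 without Sox10ko replicate 3 and 5.56 without control replicate 1. Cox6a1, its common counterpart, had 208, 259.8 and 201 CPM in the 3 Sox10ko libraries, against 238, 194 and 247 CPM in the controls, and the groups overlapped (log2 fold change -0.02 ± 0.14, edgeR adjusted p = 0.935). Per length of principal transcript, Cox6a2 made up 0.600%, 0.716% and 3.00% of the Cox6a pair in Sox10ko replicates 1, 2 and 3, against 0.0956%, 0.0222% and 0.0333% in control replicates 1, 2 and 3. The muscle isoform thus stayed a small minority of the pair in all libraries.

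Cox7a1, the muscle isoform of subunit VIIa, had 3.42, 5.30 and 2.54 CPM in the 3 Sox10ko libraries, against 2.09, 1.84 and 1.78 CPM in the controls, with Sox10ko replicate 2 highest and no overlap (log2 fold change 0.98 ± 0.31, edgeR adjusted p = 0.0465). Its call was kept in 1 of the 6 fits with a library left out and was lost on leaving out Sox10ko replicate 1 or 2 or control replicate 1, 2 or 3 (edgeR adjusted p = 0.0681 to 0.152). Cox7a2, the common isoform, had 190.2, 199 and 207 CPM in the 3 Sox10ko libraries, against 173, 149 and 188 CPM in the controls. It was above control in every Sox10ko library but did not pass (log2 fold change 0.22 ± 0.11, edgeR adjusted p = 0.166). The share of Cox7a1 in the pair, per length of principal transcript, was 3.07 ± 1.13% in Sox10ko and 1.86 ± 0.258% in control (SD, n = 3 each). Sox10ko replicate 3, at 2.02%, lay below control replicate 2, at 2.04%, so these shares overlapped.

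Other isoforms were close to absent. Cox8a, the common isoform of subunit VIII, had 195, 256 and 331 CPM in the 3 Sox10ko libraries, against 291, 214 and 283 CPM in the controls, overlapping and not called (log2 fold change -0.01 ± 0.21, edgeR adjusted p = 0.973). It had the highest level per kilobase of exonic length in the complex, 421 CPM per kb in Sox10ko and 425 in control, followed by Cox6a1 at 318 in Sox10ko and 322 in control. Cox8b, a muscle isoform, had 3 reads, all in Sox10ko replicate 2, and Cox8c, known from testis, had 0 reads, where a library's limit for a count of 0 (3 counts) was 0.0704 to 0.0899 CPM. Cox6b2, a testis isoform, had 2, 1 and 3 reads in Sox10ko and 2, 1 and 4 in control. Ndufa4l2, a low-oxygen counterpart of Ndufa4, had 7, 7 and 7 reads in Sox10ko and 5, 5 and 5 in control. None of these 4 had enough reads for the test, and a second gene identifier for Atp5o (ENSMUSG00000116933) had 0 reads.

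Cox7b2, a gene related to Cox7b and known from testis, was picked out after its values were seen. It had 0.0300, 50 and 4.76 CPM in Sox10ko replicates 1, 2 and 3, against 4.07, 7.02 and 4.05 CPM in control replicates 1, 2 and 3, from 1, 2132 and 191 reads in Sox10ko and 150, 274 and 166 in control. The Sox10ko libraries thus held both the lowest and the highest value of the 6, and the gene was not called (log2 fold change 1.86 ± 1.43, edgeR adjusted p = 0.363). Without Sox10ko replicate 2 the log2 fold change was -1.07 (edgeR adjusted p = 0.540), so its direction rested on that library. Its share of the Cox7b pair, per length of principal transcript, was 0.0421%, 37.3% and 5.6% in Sox10ko replicates 1, 2 and 3 and 5.47%, 9.46% and 5.20% in control replicates 1, 2 and 3.

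ATP synthase had the most abundant members and a single call. Atp5d, the delta subunit of the central stalk, had 296, 306 and 315 CPM in Sox10ko replicates 1, 2 and 3, against 237, 232 and 231 CPM in control replicates 1, 2 and 3. Both groups were tight and stood apart (log2 fold change 0.39 ± 0.08, edgeR adjusted p = 0.0112). The call was lost with no low-count filter, with a replicate block and with a GC trend removed. It was also lost on leaving out control replicate 3 (edgeR adjusted p = 0.0691), which left 0 calls in the complex. The median log2 fold change of its 17 tested members was 0.11 with all libraries and 0.19 without Sox10ko replicate 1. Atp5b, the catalytic beta subunit, had the highest level per kilobase of exonic length, at 447 CPM per kb in Sox10ko and 365 in control. Its libraries were at 1840.3, 2033 and 1814 CPM in Sox10ko and 1399.9, 1622 and 1621 CPM in control, above control throughout but not called (log2 fold change 0.29 ± 0.11, edgeR adjusted p = 0.0774). Atp5a1, the alpha subunit, was next, at 304 CPM per kb in Sox10ko and 287 in control. With 787, 1061 and 1015 CPM in Sox10ko and 854, 954 and 896 CPM in control, Sox10ko replicate 1 was the lowest of the 6 and the groups overlapped (log2 fold change 0.08 ± 0.13, edgeR adjusted p = 0.678).

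Atp5g1, Atp5g2 and Atp5g3 encode the same mature c subunit, the piece of the rotating ring. Atp5g3 had 278, 272 and 266 CPM in the 3 Sox10ko libraries, against 217, 226 and 238 CPM in the controls, above control in every library but not called (log2 fold change 0.26 ± 0.09, edgeR adjusted p = 0.0546). Atp5g2 had 34.4, 22 and 32.8 CPM in the 3 Sox10ko libraries, against 38.2, 34.2 and 35.7 CPM in the controls, with Sox10ko replicate 2 low and the other Sox10ko libraries near the controls (log2 fold change -0.28 ± 0.18, edgeR adjusted p = 0.265). Atp5g1 had 117, 141 and 152 CPM in the 3 Sox10ko libraries, against 124, 122 and 135 CPM in the controls, and the groups overlapped (log2 fold change 0.11 ± 0.12, edgeR adjusted p = 0.536). Per length of principal transcript, Atp5g3 held 79.1%, 80.7% and 76.7% of the 3 genes' sum in Sox10ko replicates 1, 2 and 3, against 73.0%, 75.2% and 74.8% in control replicates 1, 2 and 3. The share of Atp5g2 was 10.5 ± 2.19% in Sox10ko and 14.5 ± 1.10% in control (SD, n = 3 each), with no overlap between groups. These shares rest on principal transcript lengths of 2675.5 bases for Atp5g1, 586 for Atp5g2 and 718.5 for Atp5g3. By CPM alone, Atp5g1 was above Atp5g2 in every library. Near-identical copies elsewhere in the genome, described below, were found for Atp5g1 and Atp5g2 and not for Atp5g3.

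Summed over members, the complexes differed by less than 1.2-fold between groups. All members together made up 11287, 12369 and 12341 CPM in Sox10ko replicates 1, 2 and 3, against 10496, 10204 and 11173 CPM in control replicates 1, 2 and 3, a ratio of 1.13 with no overlap. Complex IV (ratio 1.17) and ATP synthase (1.15) had no overlap either. Complex I (1.13), complex II (1.09), complex III (1.05) and the assembly factors (0.980) overlapped. For complex IV the lowest Sox10ko sum was 1918 CPM and the highest control sum 1910 CPM, and for ATP synthase 4477 and 4273 CPM. Abundant genes weigh most in such sums. Atp5b, itself not called, held 1814 to 2033 CPM in Sox10ko and 1399.9 to 1622 CPM in control. The lack of overlap is therefore not a trait of all members of a complex. With 3 libraries a group, a two-sided exact permutation test of a sum cannot go below 0.10, so no p is given. ATP synthase was the largest sum, at 4720 ± 247 CPM in Sox10ko and 4112 ± 200.5 CPM in control (SD, n = 3 each).

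**Figure D4:**
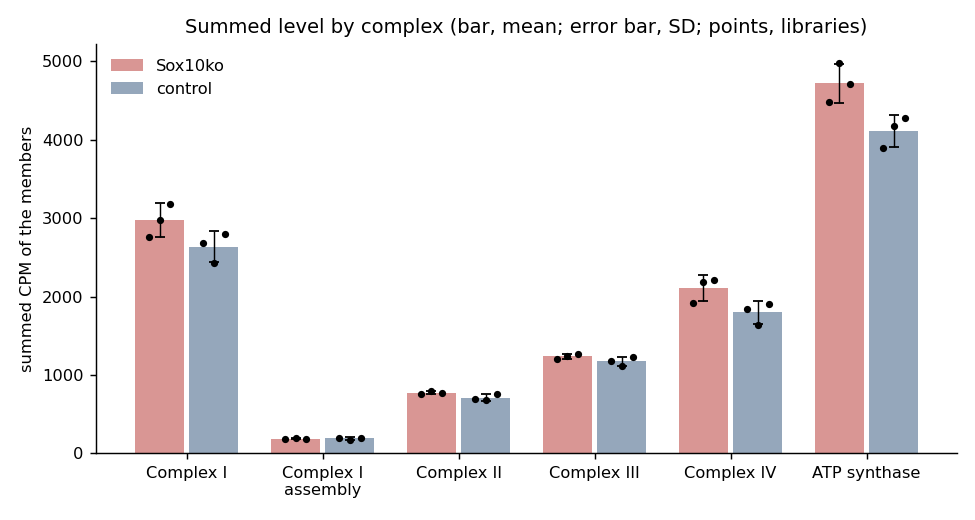
Summed CPM of the members of each complex, with Sox10ko left of control. Bars are means, error bars SD and points libraries (n = 3 each), and the Sox10ko points lie above all control points for complex IV and ATP synthase.

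The members are short genes, with a median of 1718 exonic bases against 3971 for all tested genes. Short genes as a whole had a more positive median change but not a higher share of higher calls. Among genes under 1000 exonic bases the median log2 fold change was 0.29 for 21 members and 0.10 for all genes, and from 1000 to 2000 bases it was 0.22 for 34 members and 0.12 for all. From 2000 to 4000 bases it was 0.08 for 23 members and 0.07 for all, and over 4000 bases 0.09 for 11 members and -0.04 for all. From the shortest to the longest of these classes, 7, 13, 3 and 1 members were called higher. The shares of all genes called higher there were 11.9%, 17.15%, 19.0% and 17.1%. With a trend over length removed from each library, 18 members (20.2%) were called higher, where 17.4% of all genes were, and the median was 0.13. The part of gene length in the result was not tested further. On chromosome 17, where all tested genes had a median of 0.15, 5 of 7 members were higher, with a member median of 0.46. All 3 members on chromosome 8 were higher, where all tested genes had a median of 0.07. These chromosomes are named for their higher calls, and the share of all genes called higher on each was not determined. Over all chromosomes, 17.3% of tested genes were called higher. With chromosome medians removed, 28 members (31.5%) were higher, where 18.8% of all genes were.

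Near-identical sequence elsewhere in the genome touched some members. A copy with at least 95% identity over 100 bases of coding sequence was found for 23 tested members, of which 6 were called higher (Cox6c, Cox7a2l, Ndufb4, Ndufs3, Uqcr10 and Uqcr11). Of the 66 without one, 18 were higher and 2 lower. Reads counted on the copies came to at most 2.46% of the member's own reads, except for Atp5l, where they were 14.3%. Atp5l had 6.68, 5.42 and 4.93 CPM in Sox10ko and 5.56, 5.35 and 5.49 CPM in control and is uncertain for that reason. How reads that match a member and its copy equally were counted was not stated. Reads counted on neither gene would not show in these shares, so all members with a copy are uncertain to that extent. For Atp5g2, Atp5l, Cox7c and Ndufb4 a copy was 100% identical over the whole coding sequence. Exons of 31 tested members overlap another gene. Ndufa13 shares 30.0% of its exonic bases with Tssk6, which averaged 0.0497 CPM, and Cox6a2 shares 10.3% with Itgad, at 0.0181 CPM, so that these partners held almost no reads. Other called members overlap, on the opposite strand, genes with many reads. Cox4i1 shares 9.9% of its exonic bases with Emc8, which averaged 48.6 CPM, and Cox6c 7% with Vps13b, at 67.2 CPM. Ndufaf3 shares 2.6% with Impdh2, which at 223 CPM was far above Ndufaf3 itself, and Ndufa11 shares 6.4% with Vmac, at 18.0 CPM. The overlaps of Atp5d, Ndufa3 and Ndufs3 were at most 4%. The strand setting of the counting was not stated, so reads in the shared bases cannot be told apart and these members are uncertain to that extent.

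Many members lie head to head with another protein-coding gene, the starts within 1000 bases and the genes pointing apart. This held for 35 of the 89 tested members (39.3%), against 2061 of 12735 tested protein-coding genes (16.2%). Of 31 such pairs analysed, each with a tested partner, the partner was called higher in 2 (6.45%) and lower in 2 (6.45%). Of all tested genes, 17.3% were called higher and 14.7% lower. The pairs with a called partner were named after their values were seen. Timm8b, a chaperone of mitochondrial import, starts 98 bases from Sdhd and lies partly within the promoter window printed above. It had 45.2, 42.2 and 45.7 CPM in the 3 Sox10ko libraries, against 28.4, 28 and 30.7 CPM in the controls (log2 fold change 0.61 ± 0.09, edgeR adjusted p = 0.00317).

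The other 3 called partners were Vmac, a coiled-coil protein linked to intermediate filaments, Wdr77, a subunit of a protein arginine methylation complex, and Tepsin, a vesicle coat protein. Vmac, which lies next to Ndufa11, had 23.4, 24.2 and 21.4 CPM in the 3 Sox10ko libraries, against 12.9, 12.6 and 13.6 CPM in the controls (log2 fold change 0.82 ± 0.12, edgeR adjusted p = 0.00210), and Ndufa11 had 54.0, 59.4 and 69.5 CPM in the 3 Sox10ko libraries, against 45.1, 42.3 and 45.2 CPM in the controls (log2 fold change 0.46 ± 0.12, edgeR adjusted p = 0.0203). Both genes had every Sox10ko library above control. They share 70 exonic bases on opposite strands, so their values may hold some of the same reads. Of the pairs analysed, this was the only one in which both were called, and the call of Ndufa11 was lost on leaving out control replicate 1, 2 or 3 (edgeR adjusted p = 0.0656 to 0.0787). Wdr77, next to Atp5f1, was lower (log2 fold change -0.45 ± 0.11, edgeR adjusted p = 0.0199), as was Tepsin, next to Ndufaf8 (log2 fold change -0.35 ± 0.11, edgeR adjusted p = 0.0411). Neither Atp5f1 nor Ndufaf8 was called. The call of Wdr77 was lost on leaving out control replicate 1 or 3 (edgeR adjusted p = 0.0502 and 0.0564) and that of Tepsin on leaving out Sox10ko replicate 1, 2 or 3 or control replicate 1, 2 or 3 (edgeR adjusted p = 0.0541 to 0.112).

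**Figure D5:**
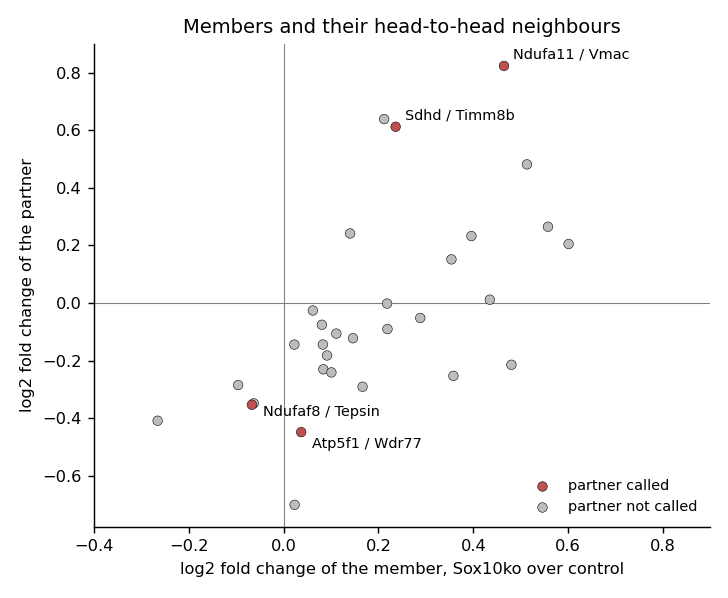
Log2 fold change of the partner (y axis) against that of the respiratory chain member (x axis) for 31 head-to-head pairs, Sox10ko over control. Red points have a called partner and are labelled member / partner: Sdhd / Timm8b and Ndufa11 / Vmac have the partner above 0, and Atp5f1 / Wdr77 and Ndufaf8 / Tepsin have it below 0.

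Genes around the respiratory chain were described from further lists. Of 40 tested assembly factors outside the member rule, 3 (7.5%) were higher and 1 (2.5%) lower, where 17.3% of all tested genes were higher and 14.7% lower (median log2 fold change 0.14). Surf1, an assembly factor of complex IV, had 36.2, 31.5 and 32.2 CPM in the 3 Sox10ko libraries, against 24.6, 21.7 and 24.4 CPM in the controls, above control throughout (log2 fold change 0.50 ± 0.11, edgeR adjusted p = 0.0131). Coa3, another complex IV factor, was also higher (log2 fold change 0.45 ± 0.12, edgeR adjusted p = 0.0303), and Nubpl, which brings iron-sulphur clusters to complex I, was lower (log2 fold change -0.55 ± 0.15, edgeR adjusted p = 0.0266). These calls were lost on leaving out control replicate 2 or 3 (edgeR adjusted p = 0.0540 and 0.0579) for Surf1, on leaving out Sox10ko replicate 3 or control replicate 1, 2 or 3 (edgeR adjusted p = 0.0645 to 0.122) for Coa3 and on leaving out Sox10ko replicate 1 or 2 or control replicate 1 or 3 (edgeR adjusted p = 0.0535 to 0.0953) for Nubpl. The 13 subunits encoded in mitochondrial DNA had no match among the symbols and were not analysed here.

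Coenzyme Q carries electrons from complexes I and II to complex III. Of 17 genes for its synthesis and for electron carriers, 4 (23.5%) were higher and 1 (5.88%) lower (median 0.11). For all tested genes these shares were 17.3% and 14.7%. Coq8a, an atypical kinase needed for coenzyme Q synthesis, had 3.27, 4.65 and 3.44 CPM in the 3 Sox10ko libraries, against 0.542, 1.05 and 1.10 CPM in the controls. The lowest Sox10ko library was well above the highest control (log2 fold change 2.07 ± 0.33, edgeR adjusted p = 0.00367). Coq9, a lipid-binding protein of the same pathway, was higher (log2 fold change 0.51 ± 0.11, edgeR adjusted p = 0.0133), and so was Pdss2 (log2 fold change 0.59 ± 0.16, edgeR adjusted p = 0.0268). Pdss2 and Pdss1 form the enzyme that makes the tail of coenzyme Q, and Pdss1 was lower (log2 fold change -0.60 ± 0.17, edgeR adjusted p = 0.0324). The calls were lost on leaving out control replicate 1, 2 or 3 (edgeR adjusted p = 0.0525 to 0.0630) for Coq9, on leaving out Sox10ko replicate 2 or control replicate 1, 2 or 3 (edgeR adjusted p = 0.0631 to 0.0917) for Pdss2 and on leaving out Sox10ko replicate 1 or 3 or control replicate 1, 2 or 3 (edgeR adjusted p = 0.0534 to 0.103) for Pdss1. Cycs, cytochrome c itself, had 52.3, 81.5 and 73.8 CPM in Sox10ko and 79.6, 56.3 and 71.6 CPM in control, with overlapping groups (log2 fold change 0.00 ± 0.19, edgeR adjusted p = 0.997).

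Among 19 transcriptional regulators known for respiratory genes, 3 (15.8%) were higher and 4 (21.1%) lower (median -0.12). The shares of all tested genes were 17.3% higher and 14.7% lower. Esrrb, an oestrogen-related receptor, had 6.62, 23.0 and 10.1 CPM in the 3 Sox10ko libraries, against 0, 0 and 0 CPM in the controls, with 0 reads in every control library (edgeR adjusted p = 0.00136). It passed the filter on low counts only through the Sox10ko libraries, so its direction was set by the filter. Pprc1, a coactivator of the PGC-1 family, had 131, 139 and 160.0 CPM in the 3 Sox10ko libraries, against 229.6, 216 and 199.5 CPM in the controls and was below control throughout (log2 fold change -0.59 ± 0.11, edgeR adjusted p = 0.00728). Ppargc1b, of the same family, was higher (log2 fold change 0.85 ± 0.23, edgeR adjusted p = 0.0261) and lost its call on leaving out Sox10ko replicate 2 or 3 or control replicate 1 or 3 (edgeR adjusted p = 0.0549 to 0.113). Nrf1, Gabpa, Gabpb1, Gabpb2 and Tfam are given for their known roles and were chosen after their values were seen. Nrf1, the factor that binds the NRF1 motif, had 38.4, 40.7 and 43.3 CPM in the 3 Sox10ko libraries, against 54.2, 50.8 and 48.0 CPM in the controls, below control throughout (log2 fold change -0.32 ± 0.10, edgeR adjusted p = 0.0417), and its call was lost on leaving out Sox10ko replicate 1 or 2 or control replicate 1, 2 or 3 (edgeR adjusted p = 0.0706 to 0.114). Gabpa, an ETS factor whose gene lies head to head with Atp5j, had 69.1, 66.6 and 83.4 CPM in the 3 Sox10ko libraries, against 82.3, 95.2 and 81.4 CPM in the controls (log2 fold change -0.24 ± 0.12, edgeR adjusted p = 0.172). Its partner subunits Gabpb1 (log2 fold change -0.33, edgeR adjusted p = 0.0434) and Gabpb2 (log2 fold change -0.34, edgeR adjusted p = 0.0390) were called lower. Gabpb1 lost its call on leaving out Sox10ko replicate 1, 2 or 3 or control replicate 1 or 3 (edgeR adjusted p = 0.0571 to 0.121). Gabpb2 lost it on leaving out Sox10ko replicate 2 or control replicate 1, 2 or 3 (edgeR adjusted p = 0.0752 to 0.103). With the trend over length removed, Nrf1, Gabpb1 and Gabpb2 were not called (edgeR adjusted p = 0.148, 0.106 and 0.319). All of them also lost their calls with a GC trend removed, library size alone, a 5 CPM minimum mean or a replicate block. Tfam, the packaging factor of mitochondrial DNA, had 73.5, 74.5 and 74.1 CPM in Sox10ko and 74.5, 75.5 and 77.5 CPM in control, and the groups overlapped (log2 fold change -0.03 ± 0.08, edgeR adjusted p = 0.777).

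Lists of fuel pathway genes are small, and their shares of calls can be set only roughly beside those of all tested genes (17.3% higher and 14.7% lower). Of 17 genes of pyruvate dehydrogenase and the citric acid cycle, 2 were higher and 0 lower (median 0.12). These were Dlat (log2 fold change 0.37 ± 0.09, edgeR adjusted p = 0.0176), a core subunit of pyruvate dehydrogenase, and Idh3b (log2 fold change 0.32 ± 0.09, edgeR adjusted p = 0.0338), of isocitrate dehydrogenase. Their calls were lost on leaving out Sox10ko replicate 2 or control replicate 1 or 3 (edgeR adjusted p = 0.0501 to 0.0947) for Dlat and on leaving out Sox10ko replicate 2 or 3 or control replicate 1, 2 or 3 (edgeR adjusted p = 0.0742 to 0.117) for Idh3b. Of 20 genes of glycolysis and lactate, 2 were higher and 2 lower (median 0.10). Slc16a1, a transporter of lactate and pyruvate, had 72.6, 70.9 and 111 CPM in the 3 Sox10ko libraries, against 215, 188 and 183 CPM in the controls, with all Sox10ko libraries below control (log2 fold change -1.20 ± 0.19, edgeR adjusted p = 0.00330). The muscle phosphofructokinase gene Pfkm was higher (log2 fold change 0.51 ± 0.11, edgeR adjusted p = 0.0114) and the platelet form Pfkp lower (log2 fold change -0.48 ± 0.13, edgeR adjusted p = 0.0323). Their calls were lost on leaving out control replicate 1 or 3 (edgeR adjusted p = 0.0574 and 0.0591) for Pfkm and on leaving out Sox10ko replicate 2 or 3 or control replicate 2 or 3 (edgeR adjusted p = 0.0706 to 0.0918) for Pfkp.

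Of 22 other mitochondrial proteins, 4 (18.2%) were higher and 2 (9.09%) lower (median -0.06), where 17.3% and 14.7% of all tested genes were. Mfn2 and Mfn1, the mitofusins that fuse outer membranes, moved oppositely. Mfn2 had 127, 136 and 137 CPM in the 3 Sox10ko libraries, against 69.5, 78.7 and 74.2 CPM in the controls (log2 fold change 0.85 ± 0.09, edgeR adjusted p = 0.000696), and Mfn1 had 56.5, 49.8 and 45.7 CPM in the 3 Sox10ko libraries, against 73.6, 82.7 and 84.6 CPM in the controls (log2 fold change -0.66 ± 0.11, edgeR adjusted p = 0.00466). In each the groups stood apart, Mfn2 above and Mfn1 below control. Slc25a4, a carrier that exchanges ADP for ATP across the inner membrane, had 384, 344 and 306 CPM in the 3 Sox10ko libraries, against 234, 233 and 235 CPM in the controls and was above control in every library (log2 fold change 0.56 ± 0.11, edgeR adjusted p = 0.00755).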

How the data were processed

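Messenger RNA was measured in 3 Sox10ko and 3 control cultures, grouped by their genotype labels. The deposited values are raw read counts per Ensembl gene, 1 table per library. The submitters' processing notes name the tools STAR 2.6.0c, HTSeq and DESeq2 and the build mm10 (GRCm38). What each tool did, the annotation release and the strand setting were not stated, so genes that overlap others are uncertain.

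Symbols matched 54042 of 54109 IDs, and 13 symbol matches that are not protein-coding were left out. Coordinates are from GENCODE M21 (GRCm38). Counts were filtered with filterByExpr, scaled by TMM and tested with the quasi-likelihood F test of edgeR 4.0.16 (R 4.3.3), two-sided, on all 6 libraries with no covariate. Benjamini-Hochberg adjustment covered all 15427 tested genes. The p-values measure the spread between these cultures. In simulated counts for Sox10ko against control (15427 genes, 50 changed at each size) the step found 20% of 1.5-fold changes, 70% of 2-fold, 98% of 4-fold and 100% of 8-fold changes. It made 6 false calls in 15227 unchanged genes. One read was worth 0.0235 to 0.0300 CPM. Floors for a count of 0 (3 counts) cover counting error only, since reads are not independent molecules. No replicate pair agreed within sampling noise (chi-square per degree of freedom 27.7 to 91.1). Same-numbered libraries did not deviate together (correlation across genes -0.12, -0.04 and 0.04), so the main fit did not pair them. The titles do not say whether same-numbered cultures were handled together.

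The text names, per complex, up to 4 called members with the lowest adjusted p, up to 2 called in the rarer direction, tissue or paired isoforms, catalytic or core subunits and the 2 highest members per exonic length. Of each gene list around the pathway it names up to 3 with the lowest adjusted p and 1 in the rarer direction. Genes outside this rule are said to be chosen after their values were seen, and remaining called members are only listed. Members, lists, rules and alternatives were chosen with earlier results of these data known. Near-identical copies were sought with blastn 2.17.0 (at least 95% identity over 100 bases). Alternatives were DESeq2 size factors, library size alone, no low-count filter, a 5 CPM minimum mean, limma-voom (limma 3.58.1), the DESeq2 1.42.0 test, a replicate block, each library left out, GC and length trends (loess span 0.5) removed and chromosome medians removed. Levels per length of the principal transcript were added after seeing the data. One head-to-head pair is not reported here.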

Additional observations from a re-analysis of the deposited data

How the results depend on the processing

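The 24 members called higher became 9 with no low-count filter (9.78% of 92 members, where 9.44% of all genes were called) and 6 with a replicate block (6.74%, where 12.7% were), and 5 to 21 with a library left out. The 2 called lower became 1 with the replicate block and 1 to 2 with a library left out. The block ended 19 of the 26 calls. Same-numbered libraries did not deviate together, but whether those cultures were handled together is not known. The other 8 alternatives gave 18 to 29 higher and 2 to 3 lower. With the GC trend removed, 18 members (20.2%) were higher, where 17.0% of all genes were, and complex I had 7 higher calls. Losses of call named above for single genes are, unless said otherwise, those on leaving out a library, and other alternatives ended further calls. The members' median log2 fold change of 0.19 was 0.17 with the replicate block and lay between 0.11 and 0.24 over all 16 alternatives, a shift below the SD between libraries (0.0815, log2) in each. Of 1421 results for single members, 138 lost and 25 gained a call, and 0 reversed with one. No alternative run ended the call of Sox10. Most 1.5-fold changes were missed in the simulated data, where changed genes were few and drawn without regard to membership. Members had a median of 78.2 CPM, against 21.1 CPM for all tested genes. The simulated shares therefore do not measure recovery among members, and a member that was not called may still differ.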
